A study of Rattus norvegicus with 2 samples.

Results

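Long enriched regions, those of 400 bases or more in the deposited list of m6A-enriched regions, made up 1226 of 8512 regions (14.4%). They lay in 1109 of the 4209 listed genes (26.3%, exact 95% interval 25.0 to 27.7%). Regions were chosen by their deposited length alone, and the remaining 7286 regions below 400 bases are called shorter regions. The 2 libraries behind the list were 1 immunoprecipitate and 1 input, both prepared from primary hippocampal neurons of newborn (P0) Sprague-Dawley rats kept in lead acetate (PbAc) during 48 h, beginning on day 12 in vitro. Ara-C, which stops dividing cells, had been added on day 7 in vitro. Sample labels put the dose at 5 mM and the design text at 5 µM, and the exposure is said to end on day 13 or on day 14 in vitro. Unexposed neurons were not analysed here, and the values cannot show what lead did. No number of animals or cultures is stated, and with 1 library of each kind there is no replicate error and no test.

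N6-methyladenosine (m6A) is a methyl mark that the Mettl3 and Mettl14 complex places on adenosines of messenger RNA as it is transcribed. It is known to be frequent in long internal exons and around stop codons, and reader proteins bound to it act on splicing, export, translation and decay. In methylated RNA immunoprecipitation, fragments that carry the mark are pulled down with an antibody and set against the input. An enriched region is therefore a stretch covered by captured fragments and not a single base, and a long region may hold more than 1 methylated adenosine. How many it holds, and where in its transcript it lies, was not analysed here. Fold enrichment below is the deposited linear ratio of the immunoprecipitate over background, and the score is 10 times the −log10 of the deposited p. A score of 100 is thus a p of 1e-10. Length, fold and score of a region come from the same contrast, so their relations are given as descriptions. All intervals cover counting error only, and the depth of the libraries is unknown because the list holds no counts.

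The long regions covered nearly as many bases as all shorter regions together. They spanned 1099715 bases (48.6% of the listed bases), against 1161597 bases (51.4%) in the shorter regions. Their median length was 681.5 bases (quartiles 503.25 and 1005.75, longest 7383), against 146 bases (quartiles 106 and 197) in shorter regions. There were 293 regions of 400 to 499 bases, 339 of 500 to 699, 284 of 700 to 999, 242 of 1000 to 1999 and 68 of 2000 bases or more. The distribution had a single mode among the shorter regions, and the limit of 400 bases cut its upper tail. Just inside, at 400 bases, Cald1, an actin-binding protein gene, had a fold of 19.12. Psmd8, a proteasome subunit gene, had 10.77 at the same length, the cytokine receptor gene Il11ra1 6.13 and the transcription factor gene Gtf3c5 3.81. Just outside, at 399 bases, the RNA-binding protein gene Serbp1 had a fold of 9.74 and the ubiquitin-conjugating enzyme gene Ube2o 7.69. Cfap36 and the microtubule-binding protein gene Camsap3 were at 7.4 and 5.78.

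**Figure D1:**
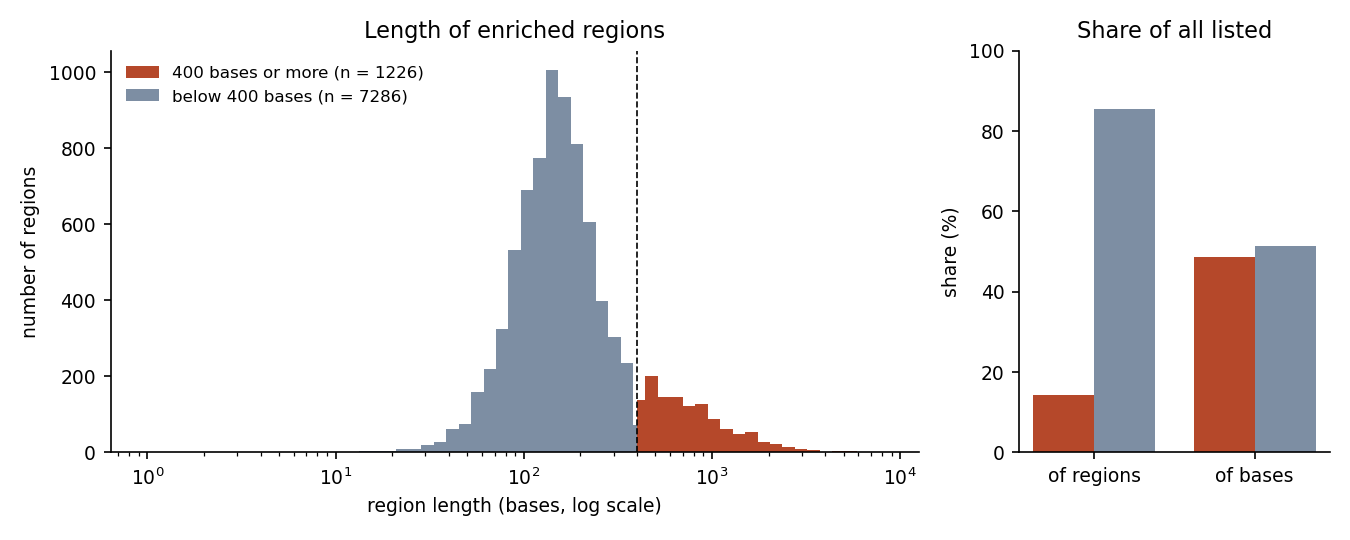
Length of the listed regions (left; horizontal axis in bases on a log scale, vertical axis the number of regions) with the 400-base limit as a dashed line, and the share of all regions and of all listed bases in each length class (right; percent). The 1226 long regions are the upper tail of a single distribution, and they hold 14.4% of the regions and 48.6% of the bases.

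Fold enrichment was slightly larger in long regions. The median fold was 6.185 in long regions (95% interval of the median 5.9 to 6.43, quartiles 4.53 and 8.797) and 5.87 in shorter regions (5.8 to 5.96, quartiles 4.39 and 8.4). The intervals overlapped, and the quartiles of the classes were close. Among regions with a p of 1e-10 or less the order was turned, with medians of 9.77 in long and 10.14 in shorter regions. A fold of at least 10 was reached by 229 long regions (18.7%, interval 16.5 to 21.0%) and by 1246 shorter regions (17.1%, 16.2 to 18.0%). Over all listed regions the share was 17.3%. The difference was wider in p than in fold. A p of 1e-10 or less was found in 467 long regions (38.1%, interval 35.4 to 40.9%) and 2337 shorter regions (32.1%, 31.0 to 33.2%), with 32.9% over all regions. Scores pile up at 3100, which serves here as a cap. Scores of 3100 or above occurred in 54 long regions (4.40%, interval 3.33 to 5.71%) and 121 shorter regions (1.66%, 1.38 to 1.98%), with 2.06% over all regions. The rule used the same contrast, so nothing is read from these shares.

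Among long regions, more length did not go with more fold. The median fold was 6.31 at 400 to 499 bases, 6.17 at 500 to 699, 5.97 at 700 to 999, 5.895 at 1000 to 1999 and 6.795 at 2000 bases or more. The corresponding shares at a p of at most 1e-10 were 38.2, 38.1, 35.2, 37.2 and 52.9%, the last with an interval of 40.4 to 65.2% because it rests on 68 regions. Spearman's rho between length and fold was −0.007 over the 1226 long regions and 0.119 over all 8512 regions. Among shorter regions the median fold was 5.35 below 50 bases and 6.45 at 200 to 299 bases, so the slope lay below the limit. These regions share 2 libraries, and the coefficients are descriptions.

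**Figure D2:**
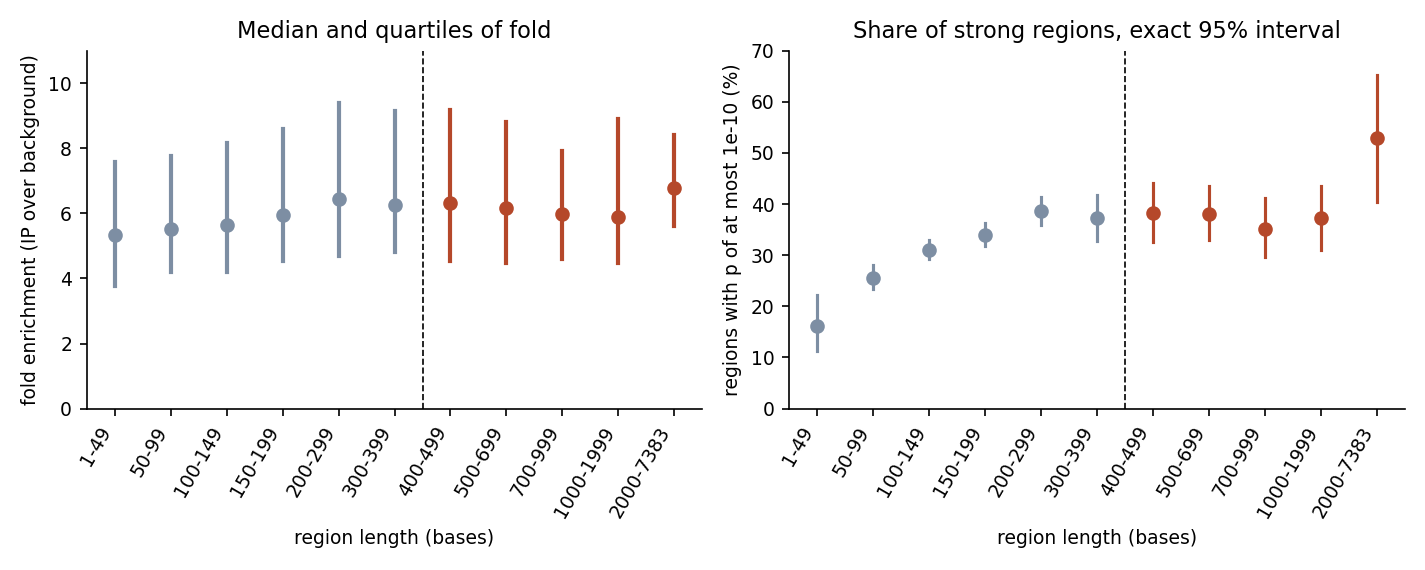
Fold enrichment (left; points are medians, lines run from the first to the third quartile) and the share of regions at a p of at most 1e-10 (right; percent, with exact 95% intervals) by region length in bases. Grey classes lie below the 400-base limit and red classes above it. Both measures climb up to 200 to 299 bases and are level from there to 1999 bases, and the class of 2000 bases or more has 52.9% at that p.

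Set side by side at like scores, long regions had the lower median fold in all 4 score classes from 100 upwards. At scores from 100 to 300 the median fold was 7.905 in 182 long regions and 8.37 in 1124 shorter regions. At scores from 1000 to 3100 it was 14.275 in 72 long and 17.72 in 324 shorter regions, and at 3100 or above 22.865 in 54 long and 26.79 in 121 shorter regions. Below a score of 10 the order was turned, with 4.17 in 269 long and 3.84 in 1707 shorter regions. Read the other way, a fold of 10 to 20 came with a median score of 708.27 in long and 455.38 in shorter regions. At a fold of 5 to 7 the median scores were 32.46 and 34.31 in long and shorter regions.

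Weak statistical support was about as frequent in either class. A p above 0.05 was found in 325 long regions (26.5%) and 2078 shorter regions (28.5%), with 28.2% over all regions. Those 325 had a median length of 659 bases, close to that of all long regions. Their median fold was 4.26. Of the 68 regions of 2000 bases or more, 8 had such a p, and of the 310 regions of 1000 bases or more, 76 did. The false discovery rate was listed as 100% for every region and separated none.

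The longest regions lay in genes of very large cytoskeletal, Golgi and nuclear proteins. Plec, which encodes plectin, a linker between intermediate filaments and other cytoskeletal systems, had the longest region, 7383 bases at chr7:117215919-117223301, with a fold of 10.59. Map1b, a microtubule-associated protein gene of growing axons, had 6481 bases at chr2:48844861-48851341 with a fold of 13.49, its only listed region. Golgb1, which encodes giantin of the Golgi membrane, had 5123 bases at chr11:69868359-69873481 with a fold of 13.61. Akap12, a scaffold gene for protein kinase A, had 4807 bases with a fold of 7.46. Ankrd11, a chromatin regulator gene, had 4536 bases at chr19:66416359-66420894 with a fold of 15.88, the highest fold of the 12 longest regions. The scores of these 5 regions were all at 3100.

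The other 7 of the 12 longest had folds of 4.59 to 8.33. The related gene Ankrd12 had 4676 bases with a fold of 8.33, and Golga4, another golgin, had 4196 bases with a fold of 6.45. Hivep3, a zinc finger transcription factor gene, had 5494 bases with a fold of 6.74. Nes, which encodes the intermediate filament protein nestin of neural progenitors, had 5100 bases at chr2:206750889-206755988 with a fold of 5.01. Setbp1, which encodes a SET-binding protein, had 3448 bases with a fold of 4.59. For 2 of the 12 the statistical support was poor in spite of the length. Zfhx4, a zinc finger homeobox gene, had 5403 bases with a fold of 6.53 and a score of 11.15. Spen, a transcriptional corepressor gene, had 5161 bases with a fold of 6.56 and a score of 3.48. In all, 10 of the 12 had a p of at most 1e-10.

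Long regions with the highest folds often had doubtful names. Of the 12 long regions with the highest fold, 6 carried a provisional name (a locus number, a clone name or a name not matched to the current gene table). The highest fold of all, 298.33, belonged to AABR06042582.1, a clone-based name, over 411 bases at chr6:39264759-39265169. Among the 17 long regions of at least 30-fold, 7 had provisional names and 11 were tied to Ensembl transcripts. Over all long regions the shares were 9.46% and 24.8%. Names of the 79 shorter regions of at least 30-fold were not counted, so this is not shown to be particular to long regions. The highest with a gene symbol was a pseudogene of the chromatin protein gene Hmgb1, now named Hmgb1-ps33 and deposited as Hmg1l1, at 77.69 over 876 bases of chromosome X. Reads of the parent gene and of such a copy cannot be told apart here.

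Among protein-coding genes the RNA-processing genes stood near the top. Arglu1, which encodes an arginine- and glutamate-rich splicing cofactor, had a fold of 57.05 over 550 bases at chr16:86014418-86014967. Chga, the chromogranin A gene of secretory granules, had 53.9 over 454 bases at chr6:135652951-135653404. Lto1, deposited as Oraov1, had 53.12 over 425 bases. Snrnp70, a protein gene of the U1 spliceosomal particle, had 51.32 over 824 bases at chr1:102431123-102431946. Zc3h13, a subunit gene of the m6A methyltransferase complex, had 43.31 over 601 bases at chr15:61099837-61100437. Cdv3 had 35.84, and the ribosome-binding endoplasmic reticulum protein gene Rrbp1 had 33.91. Ccdc112 and the nucleosome-binding protein gene Hmgn5 had 31.5 and 28.98. Of these, Rrbp1 was also among the very long, with 2062 bases. Hspa8, a constitutive Hsp70 chaperone gene, was listed at 28.84 over 2102 bases of chromosome 5, but the gene lies on chromosome 8 in the current gene table.

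**Figure D3:**
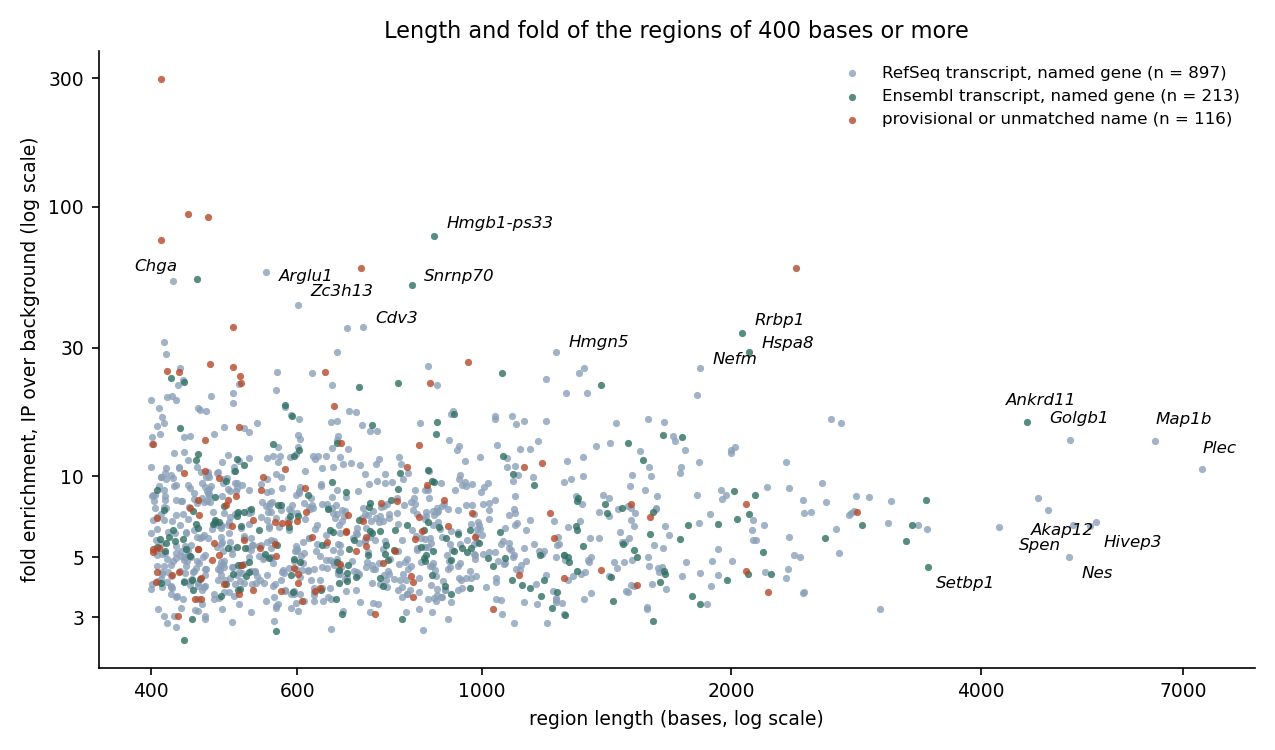
Length (bases, log scale) and fold enrichment (immunoprecipitate over background, log scale) of each of the 1226 long regions, by transcript source and name. Plec and Map1b lie at the right, the provisional name with a fold of 298.33 at the upper left, and no slope joins length and fold (Spearman's rho −0.007).

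Genes with a long region had about as many listed regions as other genes. The mean was 2.11 regions in genes with a long region and 1.99 in the other 3100 genes, and the median was 1 in both. Counting regions with a p of 1e-10 or less, the means were 1.63 and 1.65. A single region was listed in 617 genes with a long region (55.6%) and in 1700 of the other genes (54.8%). Counted by region the classes differed. The only region of its gene was 617 of the 1226 long regions and 1700 of the 7286 shorter regions. The share of genes with a long region was 26.6% among the 2317 genes with 1 region, 24.3% among 896 with 2, 26.1% among 444 with 3, 25.4% among 248 with 4 and 25.9% among 112 with 5. It was 34.4% (66 of 192, interval 27.7 to 41.6%) among genes with 6 or more. Where a gene had further regions, the nearest lay a median of 6722 bases from a long region (603 long regions) and 3350 bases from a shorter one (5578 shorter regions). These distances are along the genome and include introns.

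In 441 genes that had regions of both classes, the long ones had the higher median fold in 269 (61.0%) and the lower in 171, with 1 tie. The medians were 6.97 for the long and 5.72 for the shorter regions of these genes, and the median log2 ratio of long over shorter within a gene was 0.21 (quartiles −0.28 and 0.78). Score was higher in the long region in 290 of the 441 genes (65.8%). In genes with a single region the median fold was 5.78 for a long and 5.325 for a shorter region. The shares at a p of at most 1e-10 in such genes were 32.3% for long and 22.1% for shorter regions.

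Most genes with a long region had just 1 of them (1008 genes), 88 had 2, and 13 had 3 or more. Pclo, which encodes Piccolo, the giant scaffold of the presynaptic active zone, was listed with 5 regions and all 5 were long. They covered 5286 bases of chromosome 4, between 16580796 and 17031648. Their folds, in genome order, were 6.59, 21.49, 14.59, 7.58 and 7.59. The first of these, 2188 bases, had a score of 5.6, and the other 4 had scores above 400. Chd7, a chromatin remodeller gene, had 4 long regions among 8, with folds of 4.06, 23.06, 13.25 and 4.88 in genome order. Their scores were 87.28, 2220.82, 322.05 and 11.83. The longest of the 4, at 1641 bases, had the lowest fold.

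The 11 genes with 3 long regions included several of nuclear proteins. The zinc finger transcription factor genes Rreb1 and Zfhx3 and the gene Prr12 had no region other than their 3 long ones. In genome order, the scores were 8.01, 219.6 and 14.55 in Rreb1 and 26.83, 8.89 and 10.71 in Zfhx3. Prr12 had 4391 bases in long regions, with folds of 6.33, 3.49 and 6.6 and scores of 96.54, 3.1 and 8.15. The last of these, with the score of 8.15, was 3299 bases long. Zc3h13 had 3 long regions among 11, with folds of 10.71, 43.31 and 22.94 in genome order. The kinase A anchoring gene Akap9 had 3 among 14, the longest of them 2346 bases with a fold of 9.06. Tnrc18 had 3 among 9, all at folds of 3.55 to 3.65 and with scores of 4.51, 10.13 and 23.79. The kinase genes Wnk2 and Map3k9, the microtubule crosslinking factor gene Mtcl1 and Ylpm1 were also among them.

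RefSeq transcripts were less frequent among long regions. NM_ accessions, which are curated RefSeq messenger RNAs, were attached to 922 long regions (75.2%, interval 72.7 to 77.6%) and 5849 shorter regions (80.3%, 79.3 to 81.2%). Ensembl (ENSRNOT) transcripts made up the other 304 long (24.8%) and 1437 shorter regions (19.7%). Provisional names stood on 116 long regions (9.46%, interval 7.88 to 11.2%) and 341 shorter regions (4.68%, 4.21 to 5.19%), and among regions with other names the NM_ shares were 80.8 and 83.0% in long and shorter regions. Long regions were 26.3% of the regions on Ensembl transcripts with a provisional name (interval 21.7 to 31.3%), 22.5% on RefSeq transcripts with one, 15.3% on Ensembl and 13.5% on RefSeq transcripts with other names. The share differed more between the kinds of name than between the transcript sources. Provisional names went with a median fold of 7.0 in long and 5.56 in shorter regions on Ensembl transcripts, and of 5.07 in long and 6.25 in shorter regions on RefSeq transcripts.

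Pseudogenes stood out in length. Of the 24 regions whose gene is a pseudogene in the current gene table, 17 were long (70.8%, interval 48.9 to 87.4%), against 14.4% of all regions. They included copies of genes of ribosomal proteins (such as Rpl26-ps2, with a fold of 22.28 over 438 bases), of high mobility group proteins (Hmgb1-ps3, 22.22 over 794 bases) and of RNA-processing proteins. Genes that now lie on a chromosome other than the listed one held 24 long regions (1.96%, interval 1.26 to 2.90%) and 57 shorter regions (0.782%, 0.593 to 1.01%). Hspa8 and the prothymosin gene Ptma (18.36 over 580 bases of chromosome 13, with another long region of 7.17-fold on its own chromosome 9) were among them. Without provisional names, pseudogenes and such genes, 1081 long and 6888 shorter regions remained, with median folds of 6.09 and 5.87.

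Gene groups were described with 23 lists of genes, by the share of a list's listed members that had a long region, against 26.3% of all listed genes. The share exceeded this in 12 lists and was below it in 11, and all intervals except that of the PI3K-AKT core included it. Of 10 listed neuron markers, 5 had a long region (50%, interval 18.7 to 81.3%). Besides Map1b, these were the neurofilament genes Nefm, with 25.16-fold over 1832 bases at chr15:46739800-46741631, and Nefh, with 15.92-fold over 1660 bases and 12.27-fold over 438 bases. Gap43, a growth cone protein gene, had 10.18-fold over 565 bases, and the synaptic vesicle protein gene Syn1 had 2 long regions of 5.1- and 7.36-fold. The scores of these Syn1 regions were 4.8 and 210.17. Of the 5 listed without a long region, Map2, Rbfox3, Syt1 and Snap25 came nearest to the limit, and their longest regions were 285, 222, 185 and 147 bases. Markers of other cell types were hardly listed. Sox9, at 5.78-fold over 744 bases, was the only long one among 3 listed astrocyte markers. No long region fell in the 1 listed oligodendrocyte marker, the 2 listed microglia markers or the 1 listed vessel marker.

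Synaptic lists fell on either side of the background. Of 28 listed presynaptic genes, 11 had a long region (39.3%, interval 21.5 to 59.4%), and of 25 listed postsynaptic density genes, 4 did (16.0%, 4.54 to 36.1%). On the presynaptic side, the active zone scaffold gene Rims1 had regions of 842 and 554 bases with folds of 15.76 and 6.54. Bsn, which encodes Bassoon, had 409 bases with a fold of 17.83. Erc1 and Erc2, further active zone scaffold genes, each had 417 bases, with folds of 9.77 and 10.74, and Syn2 had 504 bases with 9.4. On the postsynaptic side, the scaffold gene Shank1 had 3088 bases at chr1:101402555-101405642 with a fold of 6.7, and Lrrc7 had 1605 bases with 3.98. Their scores were 920.3 and 5.41. Dlgap3 and Dlgap2, genes of scaffold proteins that bind PSD-95, were the others. The intervals of these 2 lists overlapped.

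Of 20 listed voltage-gated channel genes, 9 had a long region (45.0%, interval 23.1 to 68.5%). The potassium channel gene Kcnb2 had 2327 bases with a fold of 4.18. Calcium channel genes were Cacna1g (1219 bases, 3.76-fold, and 432 bases, 10.78-fold), Cacna1b (792 bases, 7.3-fold) and Cacna1a (675 bases, 4.34-fold, and 446 bases, 14.07-fold). In Cacna1g and Cacna1a the shorter of the 2 long regions had the higher fold. The longer one of Cacna1g had a score of 7.53. The pacemaker channel gene Hcn2 had 610 bases with 5.71-fold. Scn1a, a sodium channel gene, had 483 bases with 3.52-fold and a score of 12.02. The related gene Scn8a just missed the limit at 387 bases.

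Lists of long structural proteins lay above the background by gene and below it by region, and their intervals by gene included it. This was not particular to them. The splicing, chromatin and translation factor lists did so too, with 8.97, 9.46 and 10.6% of their regions long. Without regions over 1000 bases the cytoskeletal and centrosome lists lay below the background by gene too, at −2.29 and −0.46 percentage points. Among genes with a single region the centrosome list lay below it. Among 34 listed centrosome, golgin and coiled-coil genes, 14 had a long region (41.2%, interval 24.6 to 59.3%), but these genes held 20 long and 219 shorter regions, so that 8.37% of their regions were long, against 14.4% of all regions. Besides Golgb1 and Golga4, Numa1, a spindle pole protein gene, had 3354 bases with 6.59-fold. Trip11, a Golgi microtubule protein gene, had 3021 bases with 3.21-fold, and the golgin gene Gcc2 had 2442 bases with 3.68-fold. Among 35 cytoskeletal linker, myosin and spectrin genes, 13 had a long region (37.1%, 21.5 to 55.1%). Besides Plec, Filip1 had 2787 bases with 7.32-fold and Dst, which encodes dystonin, had 2233 bases with 4.35-fold among 16 regions. Myo10, a motor protein gene of filopodia, had 885 bases with 21.83-fold. Of 26 microtubule motor genes, 4 had a long region (15.4%, 4.36 to 34.9%), led by Kif1b with 2593 bases and 5.91-fold.

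Nuclear and RNA-processing lists had shares near the background by gene. By region, 8.97% of the splicing, 9.46% of the chromatin and 17.6% of the histone-modifying list were long, against 14.4% of all regions. Of 43 listed splicing genes, 12 had a long region (27.9%, interval 15.3 to 43.7%). Of their 13 long regions, 9 reached 10-fold (18.7% of all long regions did) and 12 a p of 1e-10 or less (38.1% of all long regions did). The median fold was 11.85, against 7.39 in the 132 shorter regions of the same list. Prpf38b, Ppig and Pnn, all genes of spliceosome-associated proteins with arginine- and serine-rich stretches, had 20.4-fold over 1264 bases, 20.33-fold over 1340 bases and 20.03-fold over 1816 bases. The splicing factor gene Srsf4 had 13.23-fold over 1428 bases. Of 34 chromatin remodeller and reader genes, 9 had a long region (26.5%, 12.9 to 44.4%). Phf3 had 16.26-fold over 2638 bases, Baz1b 14.07-fold over 1699 bases, and Arid1a, a subunit gene of the SWI/SNF complex, 17.84-fold over 456 bases. In the 35 histone-modifying enzyme genes, 11 had a long region (31.4%, 16.9 to 49.3%), and none of their 13 long regions reached 10-fold. These included Kat6a with 2770 bases and 7.2-fold, and the methyltransferase genes Kmt2b with 2015 bases and 8.8-fold and Kmt2c with 1791 bases and 3.58-fold. Their scores were 63.65, 144.5 and 10.99 in that order.

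Of 22 listed genes of acidic histone chaperones, nucleolar proteins and high mobility group proteins, 8 had a long region (36.4%, interval 17.2 to 59.3%), with a median fold of 11.31 in the 9 long regions and 11.15 in the 47 shorter ones. Nucleolin (Ncl) had 20.3-fold over 502 bases, and Ubtf, a factor of ribosomal RNA transcription, 11.31-fold over 2326 bases. Of 13 listed translation factor genes, 5 had a long region (38.5%, 13.9 to 68.4%). The longest was in Eef1d, 1104 bases with 6.69-fold and a score of 6.89. Eif4g3 had 822 bases with 4.63-fold and a score of 13.04. The others were Eif3a with 17.43-fold over 692 bases, Eif5b with 16.01-fold over 670 bases and Eif3b with 14.3-fold over 476 bases. Of 10 listed genes of the m6A machinery, 3 had a long region (30%, 6.67 to 65.2%). Rbm15b, an adaptor of the methyltransferase complex, had 2034 bases with 6.93-fold, and the nuclear reader Ythdc1 had 793 bases with 8.99-fold and 433 bases with 15.13-fold. Virma, Ythdf3, Fmr1 and Wtap were listed with longest regions of 273, 267, 196 and 185 bases.

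Other lists were at or below the background. Of 28 ubiquitin ligase and deubiquitinase genes, 7 had a long region (25.0%, interval 10.7 to 44.9%), the longest in Trim2 with 724 bases. Of 11 nuclear pore and transport genes, Nup50 and Nup153 did (18.2%, 2.28 to 51.8%), with 660 and 466 bases. Of 18 adhesion and axon guidance genes, Lrrc4b, Nrxn2 and Plxna2 did (16.7%, 3.58 to 41.4%), with 2346, 941 and 571 bases. Their scores were 74.26, 6.68 and 820.32. Of 23 chaperone genes, Hspa8 and Calr had a long region (8.70%, 1.07 to 28.0%), and Calr, the calreticulin gene, had 14.71-fold over 749 bases. None of the 9 listed members of the ribosomal protein list did (exact upper limit 33.6%). Of all 12 listed genes with Rpl or Rps symbols, 1 did, Rpl37a, with 447 bases and 5.53-fold. The PI3K-AKT pathway, in which lipid and protein kinases relay growth factor signals, appears in the study's title, so its count is not independent evidence. Of 22 listed core genes, 1 had a long region (4.55%, interval 0.115 to 22.8%), namely Gsk3a, a kinase gene downstream of Akt, with 403 bases and 8.06-fold. The next longest were Akt1s1 with 389 bases, Ppp2ca with 299 and Map2k2 with 247.

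**Figure D4:**
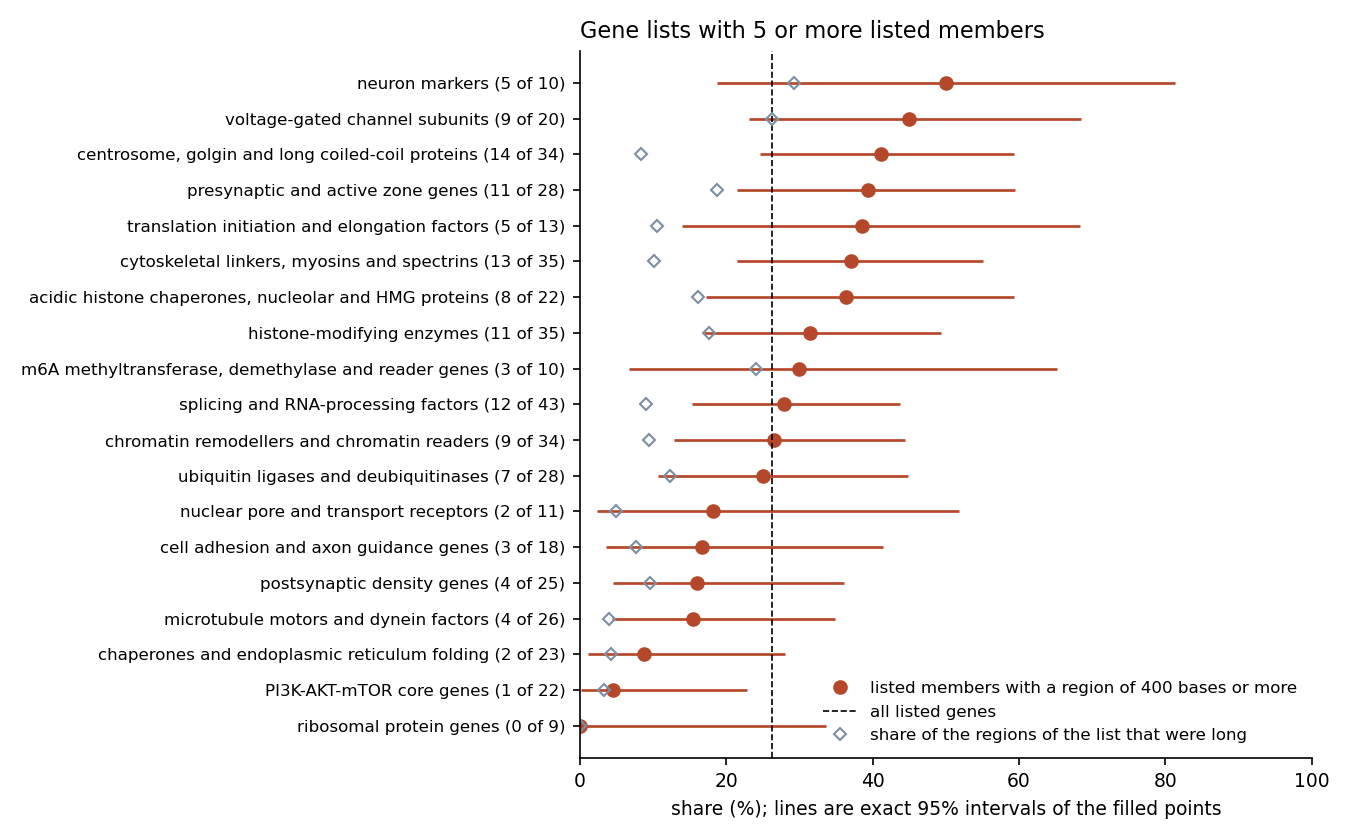
Share of the listed members of each gene list with a long region (filled points, percent, with exact 95% intervals; counts in the labels) and share of the regions of each list that were long (open diamonds). The dashed line marks the 26.3% of all listed genes. Neuron markers (50%) and channel genes (45.0%) lie highest and the PI3K-AKT core (4.55%) low, and all intervals but the last-named cross the line.

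Families of genes by symbol, chosen after their values were seen, showed a wide range. Of 60 listed genes with Zfp, Zbtb, Zfhx, Zscan or Zkscan symbols, which are named for zinc fingers, 33 had a long region (55.0%, interval 41.6 to 67.9%). Their 39 long regions had a median length of 1074 bases and a median fold of 5.08. Only 7 of the 39 (17.9%) had a p of at most 1e-10, against 38.1% of all long regions. Zfp609, with 2341 bases and 4.54-fold, and Zbtb47, with 1503 bases and 13.33-fold, were examples. Of 33 solute carrier (Slc) genes, 4 had a long region (12.1%, 3.40 to 28.2%), and of 13 genes with Rab symbols, 1 did (7.69%, 0.195 to 36.0%). Among 47 genes with Ccdc symbols, named for coiled-coil domains, 16 did (34.0%, 20.9 to 49.3%).

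Annotation terms of the deposited list were compared by the share of annotated genes that carried each term, for the 208 terms with at least 40 genes. In 73 terms the share was higher among genes with a long region, and in 135 among the other genes. With regions at a p of 1e-5 or less, the split was 48 and 46 terms. Terms of transcription lay on either side, with several among the highest ratios. Transcription coactivator activity was carried by 15 genes with a long region (1.72%) and 54 other genes (2.15%). Nucleic acid binding was carried by 51 genes with a long region (5.85%, interval 4.39 to 7.62%) and 65 other genes (2.59%, 2.01 to 3.29%). Sequence-specific transcription factor activity was carried by 61 genes with a long region (7.0%, 5.39 to 8.90%) and 96 others (3.83%, 3.11 to 4.66%). Dendritic spine, the site of most excitatory synapses, was carried by 25 genes with a long region (2.71%, 1.76 to 3.98%) and 41 others (1.52%, 1.09 to 2.05%). The term postsynaptic density was carried by 39 genes with a long region (4.23%, 3.02 to 5.74%) and 81 others (2.99%, 2.38 to 3.71%). Of the genes with this term, 32.5% had a long region (interval 24.2 to 41.7%). The share was 16.0% in the postsynaptic density list (4.54 to 36.1%) and 26.3% in all listed genes. Structural constituent of ribosome was carried by 24 genes with a long region (2.75%) and 41 others (1.64%). Of those 24 genes, 19 had a provisional name, were pseudogenes or now lie on another chromosome. Over all long regions, 9.46% had a provisional name, 1.39% were of pseudogenes and 1.96% of genes on another chromosome. The 41 other genes with the term were not counted in this way, so no difference between the 2 groups is shown.

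Among the terms that were less frequent in genes with a long region, extracellular exosome was carried by 80 genes with a long region (8.68%, interval 6.94 to 10.7%) and 470 others (17.4%, 16.0 to 18.9%). Intracellular protein transport had 8 (0.896%, 0.388 to 1.76%) and 64 others (2.49%, 1.92 to 3.16%), and GTPase activity had 7 (0.803%, 0.323 to 1.65%) and 49 others (1.96%, 1.45 to 2.58%). Any pathway annotation was present on 297 genes with a long region (26.8%, 24.2 to 29.5%) and 1148 others (37.0%, 35.3 to 38.8%), and 8 of the 40 pathway terms were more frequent in the genes with a long region. RNA transport was one of them, with 17 genes (5.72%, 3.37 to 9.01%) and 41 others (3.57%, 2.57 to 4.81%). The term MAPK signaling pathway had 23 genes (7.74%, 4.97 to 11.4%) and 64 others (5.57%, 4.32 to 7.06%), among them the calcium channel genes above and the growth arrest gene Gadd45b (675 bases, 5.22-fold). The term PI3K-Akt signaling pathway had 7 genes with a long region (2.36%, 0.953 to 4.80%) and 66 others (5.75%, 4.47 to 7.26%). Those 7 were Myc, Itga8, Creb3l1, Pck2, Spp1, Ppp2r5e and Pkn2. Their long regions ran from 404 bases in Pkn2 to 896 in Myc, with folds from 3.57 in Myc to 8.54 in Pkn2. None of these few regions had a p of at most 1e-10, against 38.1% of all long regions.

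**Figure D5:**
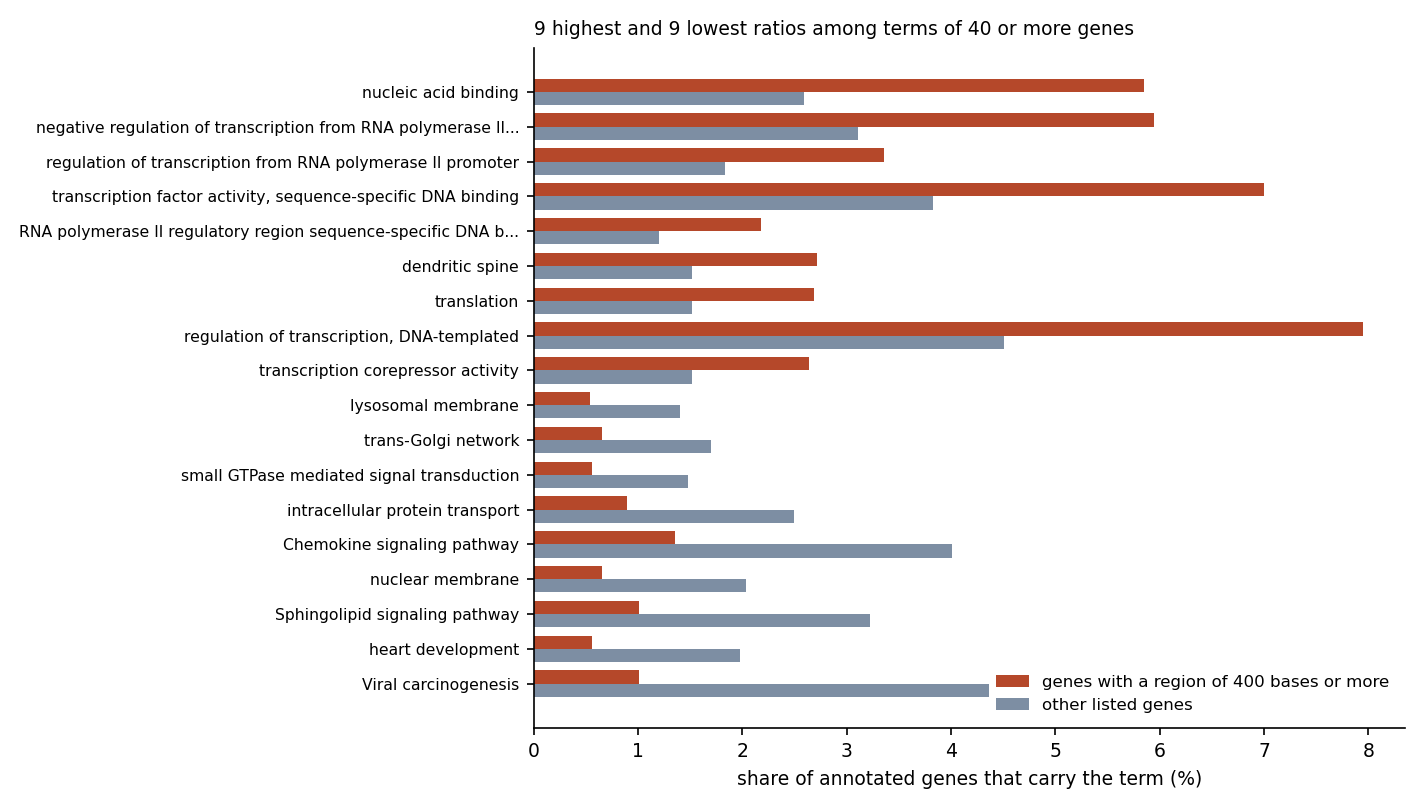
Share of annotated genes (percent) that carry each of the 9 terms with the highest and the 9 with the lowest ratio of genes with a long region (red) over other listed genes (grey), among 208 terms of 40 or more genes. Several transcription terms lie in the upper part; nucleic acid binding has 5.85% and 2.59% in red and grey, and Viral carcinogenesis at the bottom 1.01% and 4.36%.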

How the data were processed

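Per the labels' protocols, an m6A pull-down kit was applied to total RNA and strand-preserving libraries were prepared. Tools listed in the submitters' processing notes are HISAT2 2.0.4, STAR and cutadapt 1.9.3. The column names are those of MACS, a peak caller, per the file headers; neither its settings nor the genome build is given in the sources used here. The authors deposited, for each region, a fold enrichment (linear ratio of the immunoprecipitate over background), a score of −10 times log10 of the p-value, and a false discovery rate in percent (100 throughout). Depth per library is unknown.

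Deposited starts count from 0, so 1 was added to print them from 1. Region length was used as deposited, and no filter was applied. Gene names were updated with the RefSeq genes of GRCr8, by symbol (1064 long and 6697 shorter regions), gene ID (99 and 360) or transcript accession (8 and 15), and 55 long and 214 shorter regions kept the deposited name. Chromosomes and gene types of that table served only to count regions on another chromosome and pseudogenes. Shares have exact (Clopper-Pearson) 95% intervals, and medians of fold have order-statistic intervals. With 1 library of each kind, no test was made. Gene symbols were named by a rule: the 12 longest long regions, the 12 with the highest fold, the genes with the most long regions, those next to the limit, and up to 4 members of each list; others were named after their values were seen and a few that fall under it are not reported here. The length limit, the gene lists and the rule were chosen with earlier results of these data known. Alternatives were other length limits, limits on p and fold, and restrictions on names, very long regions and regions per gene. Calculations, tested on simulated lists, used SciPy 1.17.1, numpy 2.4.6 and pandas 2.3.3 in Python 3.11.15, with figures from matplotlib 3.10.9.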

Additional observations from a re-analysis of the deposited data

How the results depend on the processing

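The number of long regions was 605 at a p of at most 1e-5, 467 at a p of at most 1e-10 and 617 in genes with a single region, against 1226 in all. The difference in median fold, long minus shorter, was 0.315 and turned to −0.03 (8.72 in long and 8.75 in shorter regions) at a p of at most 1e-5, and it was −0.37 (9.77 and 10.14) at 1e-10. The difference in mean regions per gene, 0.12 in favour of genes with a long region, turned to −0.0088 at a p of at most 1e-5, −0.0141 at 1e-10 and −0.022 at a fold of at least 5. The difference in the share at a p of at most 1e-10, 6.02 percentage points, was 10.19 in genes with a single region. The difference in the NM_ share, −5.07 points, was −7.90 at a p of at most 1e-10 and −2.17 without provisional names. Lists above the background were 12 of 23 and became 6 in genes with a single region. Terms more frequent in genes with a long region were 73 and became 48 at a p of at most 1e-5, 33 at 1e-10 and 36 in genes with a single region, and fewer terms reach 40 genes there. The causes of the other shifts were not tested. Of the 23 lists, 13 kept their side of the background under every setting in which they had listed members. Among them, the oligodendrocyte, microglia, vessel and ribosomal lists had no long region, so leaving out regions could not change their side. The oligodendrocyte list was present in 9 of 11 settings and the microglia list in 10. The other 10 lists changed side under at least 1 setting (astrocyte, splicing, m6A machinery, adhesion, ubiquitin, histone-modifying, chromatin, cytoskeletal, centrosome and acidic chaperone lists). Merging overlapping regions changed nothing, since none overlapped. Leaving out pseudogenes and genes on another chromosome was chosen after seeing the data. No paired analysis was possible because 1 immunoprecipitate and 1 input library stand behind a single list. The planned comparison of protein lengths was not run, as no protein table was used here. Depth limits what can be said of weak regions: the list holds no counts, so folds of regions with low scores have no error.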

Other observations

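Equal lengths recurred within genes. Of 101 genes with at least 2 long regions, 11 (10.9%) held a pair of exactly the same length. Of 1654 genes with at least 2 shorter regions, 101 did (6.11%). These shares are not like for like, because lengths of shorter regions are more crowded. Their quartiles are 106 and 197 bases, against 503.25 and 1005.75 in long regions. Atn1, the atrophin 1 gene, had 1997 bases on chromosome 4 and again on chromosome 9, with folds of 12.22 and 12.53. In Mapk7, a mitogen-activated kinase gene, the pair was of 1079 bases on chromosome 10, with folds of 5.66 and 5.43, and in Knop1 of 939 bases on chromosome 1, with folds of 12.89 and 9.76. Whether such pairs share reads was not tested.

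The 24 long regions whose gene now lies on another chromosome were of 22 genes, and 6 of them stood close together. Adcy6, Ccdc65, Kmt2d, Lima1 and Nckap5l were listed within chrX:114788554-115974973, and all 5 genes lie on chromosome 7 in the current gene table. Long regions were 19.5% of the 246 regions listed on chromosome X (interval 14.8 to 25.0%), the highest share of any chromosome, and 17.7% without provisional names. Both shares still include these 6 regions and that of Hmgb1-ps33, whose gene now lies on chromosome 19. On chromosome 8, with the lowest, they were 10.3% of 496 regions (7.75 to 13.3%).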
